A study of Mus musculus with 48 samples.

Results

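Antigen presentation by the major histocompatibility complex (MHC) was followed in 10 genes, measured in mouse cortex through the first week after an arterial occlusion. They were chosen by name from the 46983 genes in the count tables, and all 10 were found: the class I genes *B2m*, *H2-K1* and *H2-D1*, the peptide loading genes *Tap1* and *Tapbp*, and the class II genes *Cd74*, *H2-Aa*, *H2-Ab1* and *H2-Eb1* with their regulator *Ciita*. The 48 libraries, each of bulk RNA, fell into 11 groups and all came from male C57Black/6 mice that were 3 months old. The control group (n = 4) was intact cortex. In the MCAO groups the middle cerebral artery was coagulated and cut, which leaves it closed for good and gives a small infarct in parietal cortex, and in the sham groups the same surgery was done with no coagulation. Sham (n = 4 each) and MCAO (n = 5 each, and n = 4 at 24 h) were sampled at 3 h, 12 h, 24 h, day 3 and day 7. The tissue taken held injured and uninjured cortex together, according to the sample labels, and the labels of the series speak of hemispheres.

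MHC class I molecules sit on nearly all cells with a nucleus. They consist of a heavy chain, here *H2-K1* or *H2-D1*, and the light chain encoded by *B2m*, and they show peptides cut from the cell's own proteins by the proteasome to cytotoxic T cells. TAP1 is a subunit of the transporter that brings these peptides into the endoplasmic reticulum, and TAPBP (tapasin) tethers empty class I molecules to it. Class II molecules are made mainly by professional antigen presenting cells. Their alpha and beta chains, such as those of *H2-Aa* and *H2-Ab1*, travel with the invariant chain CD74 to the endosome. There proteases remove it, and peptides of engulfed proteins take its place for display to helper T cells. CIITA is the coactivator needed for class II transcription, and interferon gamma is the best known inducer of the whole system. In healthy brain parenchyma both classes are known to be low, and microglia and the macrophages of the brain borders are the cells best known to take them up in injury.

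Of the members, 7 lie on chromosome 17, in the MHC itself. On GRCm38 these are *Tapbp* (chr17:33915899-33929292), *H2-K1* (chr17:33996017-34000347), *Tap1* (chr17:34187553-34197225), *H2-Ab1* (chr17:34257689-34269419), *H2-Aa* (chr17:34282744-34287823), *H2-Eb1* (chr17:34305867-34316674) and *H2-D1* (chr17:35262730-35267499). *B2m* is on chromosome 2 (chr2:122147686-122153083) and *Ciita* on chromosome 16 (chr16:10480059-10528418). Several of these genes overlap a neighbour, so that reads in the shared part cannot always be given to one gene. *Tapbp* overlaps *Zbtb22* on the same strand, while *Tap1* overlaps *Psmb9*, *B2m* overlaps *Patl2* and *Ciita* overlaps *Dexi* on the opposite strand. Reads that fit more than 1 place equally well were not counted, which bears on *H2-K1* and *H2-D1*, since the class I heavy chain genes are close copies of each other.

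The promoters of these genes are shown because the members of each class were called together in the data described further on. RefSeq windows on GRCm38.p6, from 250 bases before to 50 after each start, were at hand for 7 of the 10 members and for 32851 windows in all. Both strands were searched for a kB-like run (GGGGATTCC), an interferon-response-like run (GAANTGAAA), an IRF-like run (GAAA, any 2 bases, GAAA), an X2-like run (TGACG) and a Y box (CTGATTGG). The stretch of *H2-D1* lies before the RefSeq start but inside the gene as Gencode draws it, in an exon of a longer transcript. The letters searched are in capitals in the stretches printed here, and a run found on the other strand appears as its reverse complement.
H2-K1, chr17:34000374-34000468, minus strand: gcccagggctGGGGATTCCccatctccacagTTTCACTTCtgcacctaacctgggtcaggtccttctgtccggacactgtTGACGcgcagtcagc
H2-D1, chr17:35262923-35262952, plus strand: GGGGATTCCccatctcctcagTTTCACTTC
B2m, chr2:122147538-122147623, plus strand: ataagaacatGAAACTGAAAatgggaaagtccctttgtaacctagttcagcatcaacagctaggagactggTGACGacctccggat
H2-Aa, chr17:34287857-34287907, minus strand: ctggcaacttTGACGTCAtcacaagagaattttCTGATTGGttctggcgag
H2-Eb1, chr17:34305795-34305822, plus strand: tcctttgatgCTGATTGGctcccagcac

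The 2 heavy chain genes held the kB-like run and the interferon-response-like run side by side, in the same order and at the same distance. From the start of the kB-like run to the end of the X2-like run both genes had 75 bases, of which 71 were the same (94.7%). The kB-like run was in 0.25% of all windows and the interferon-response-like run in 1.83%, and among the 7 members with a window *H2-K1* and *H2-D1* held them. The IRF-like run was in *B2m* and in 3.44% of all windows. The Y box was in 5 of the 7 members (*H2-K1*, *H2-D1*, *Tap1*, *H2-Aa* and *H2-Eb1*) and in 4.1% of all windows. The X2-like run, which is short, was also in 5 of the 7 (*B2m*, *H2-K1*, *H2-D1*, *Tap1* and *H2-Aa*) but in 20.8% of all windows. In *H2-Aa* it lay on both strands, overlapping itself, upstream of the Y box. These matches describe letters and were not tested as binding sites.

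Each library had between 1522668 and 2826735 reads on genes. Levels are given as CPM, the reads of a gene scaled by the library's total after TMM normalization, which sets the libraries to a common scale. The kit reads the 3′ end of transcripts, and the levels of one gene are compared only between samples. The test was edgeR's quasi-likelihood test on 19970 genes whose summed counts exceeded 10, with Benjamini-Hochberg adjustment over all of them. A gene was called at an adjusted p under 0.01 with a log2 fold change over 0.58 in size. The SE given with a log2 fold change was derived from this test. It is the size of the log2 fold change divided by the square root of the test's F statistic. All 10 members passed the count filter, but *Ciita* had only 19 reads in the 48 libraries together, never more than 3 in 1 library. Those of *Cd74*, *H2-Aa*, *H2-Ab1* and *H2-Eb1* ranged from 0 to 25 reads per library in the control and sham groups, so their baseline is known only roughly. The study counts its replicates in mice, but the labels give only letters, so p-values measure the spread between these libraries, which may be partly technical.

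On day 3 after MCAO, 9 of the 10 members rose against sham, and none fell. Their log2 fold changes ran from 1.23 (*Tapbp*) to 4.08 (*Cd74*), with a median of 2.64 over the 9 genes other than *Ciita*, while the median of all genes was 0.01. Over all genes, 3.76% were called higher in this comparison. DESeq2 called 9 of the members and limma on the deposited normalized matrix called 8. Leaving out 1 library at a time kept 8 or 9 members called, while the share of all genes called higher ran from 2.16% (without MCAO replicate C) to 5.46% (without MCAO replicate A). All MCAO libraries lay above all shams for 5 members (*B2m*, *Tap1*, *Tapbp*, *Cd74* and *H2-Eb1*), a separation seen in 4.33% of all genes. Tissue with more cells of a type and tissue with more RNA per cell cannot be told apart in bulk libraries, here or in any of the comparisons.

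**Figure D1:**
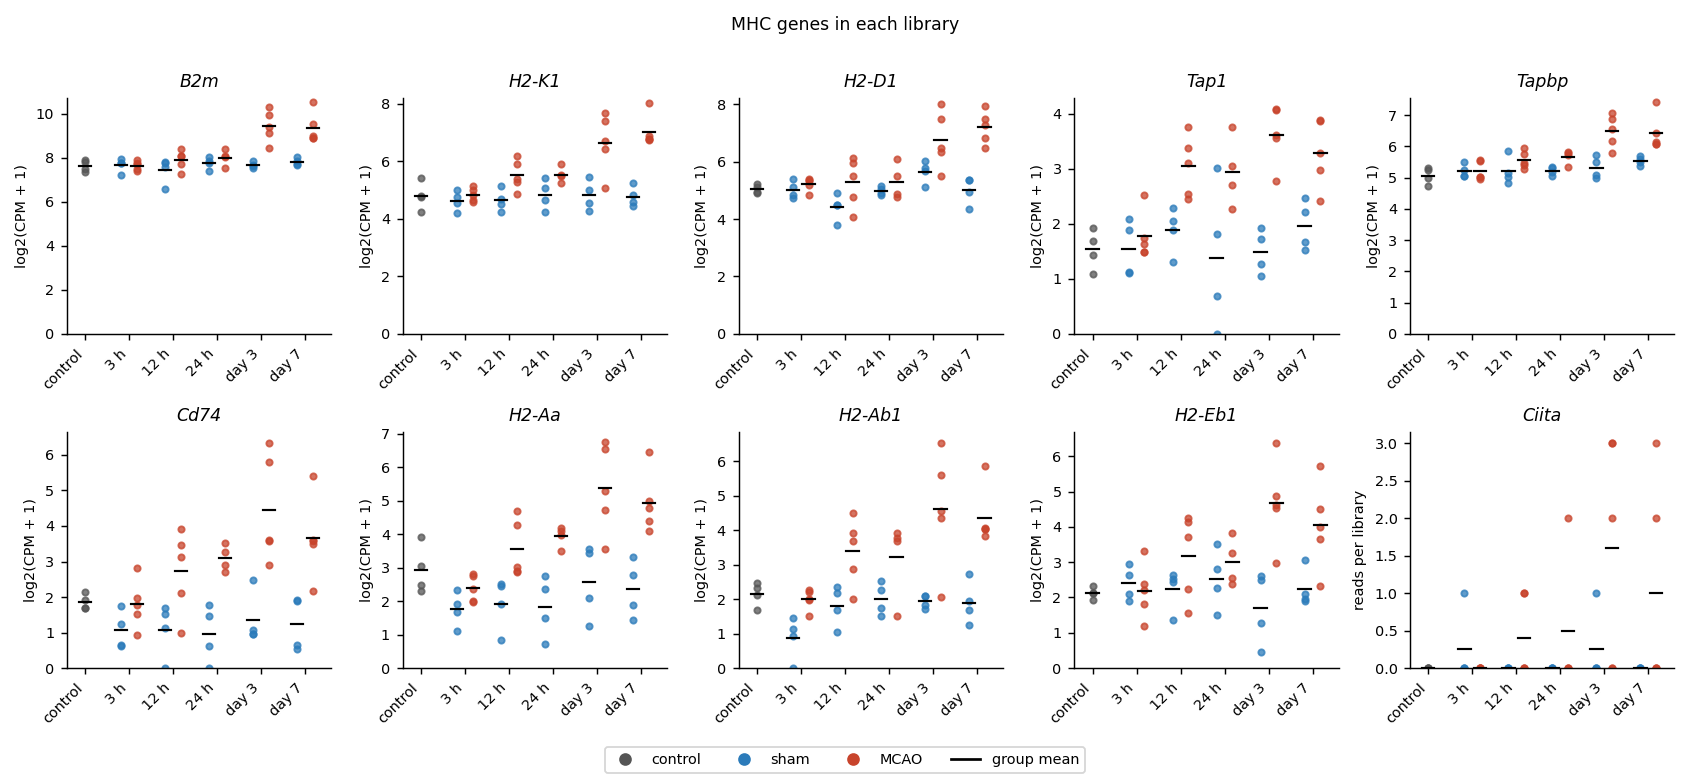
Level of each MHC gene in each of the 48 libraries, as log2(CPM + 1) on the vertical axis (reads per library for Ciita), by group on the horizontal axis. Points are libraries and bars are group means; the MCAO libraries of day 3 and day 7 are spread widely, and Ciita stays at 3 reads or fewer.

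Of the class I genes, *B2m* was measured best, with 400 to 2517 reads per library on day 3. Its level in the shams of day 3 was 229, 185, 204 and 194 CPM. In the MCAO libraries it was 351, 674, 1257, 552 and 995 CPM. The groups did not overlap, and the lowest MCAO library was still above the highest sham. The fold was 3.77 (log2 fold change 1.91 ± 0.28 SE, edgeR adjusted p = 7.15e-06).

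The heavy chain *H2-K1* stood at 30.8, 18.5, 22.4 and 43.1 CPM in the shams of day 3. After MCAO it stood at 32.6, 103, 167, 85.0 and 202 CPM. One MCAO library (replicate A) lay within the shams and the other 4 were above them all. The fold was 4.10 (log2 fold change 2.04 ± 0.34 SE, edgeR adjusted p = 3.24e-05).

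*H2-D1*, the other heavy chain, was at 53.7, 33.2, 49.5 and 63.2 CPM in the shams of day 3. The MCAO libraries had 44.3, 87.2, 178, 79.6 and 256 CPM. Replicate A again lay within the shams. The fold was 2.59 (log2 fold change 1.37 ± 0.34 SE, edgeR adjusted p = 0.00592), the weakest call among the members, and it was lost when MCAO replicate C or E or any 1 of the 4 shams was left out (log2 fold change 0.9627 to 1.497). It was also lost with the spike-ins as the scale (log2 fold change 1.08, adjusted p = 0.0359), in limma (0.99, adjusted p = 0.0197), and with only these 2 groups in the fit (1.35, adjusted p = 0.0491). With the replicate letter as a block the log2 fold change was 1.11 (adjusted p = 0.0272).

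The peptide loading genes separated the groups fully on day 3. *Tap1* had 3 to 6 reads per library in the shams and 11 to 36 after MCAO. Its shams lay at 1.09, 2.31, 2.80 and 1.41 CPM and its MCAO libraries at 5.87, 10.8, 16.0, 11.2 and 15.9 CPM. The fold was 6.24 (log2 fold change 2.64 ± 0.52 SE, edgeR adjusted p = 0.000436). *Tapbp* lay between 30.5 and 52.0 CPM in the shams and at 53.9, 92.2, 133, 71.8 and 116 CPM after MCAO. Its fold of 2.35 was the smallest of the called members (log2 fold change 1.23 ± 0.24 SE, edgeR adjusted p = 0.000326).

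The class II genes and *Cd74* had the largest folds on day 3 and also the widest spread. *Cd74*, the invariant chain, lies on chromosome 18 (chr18:60803848-60812652). It was at 1.09, 4.62, 0.934 and 0.937 CPM in the shams, or 2 to 10 reads. The MCAO libraries had 6.41, 10.8, 79.4, 11.2 and 54.6 CPM, or 12 to 159 reads. Replicates C and E stood far above the other 3 MCAO libraries, and no MCAO library was as low as a sham. The fold was 16.9 (log2 fold change 4.08 ± 0.71 SE, edgeR adjusted p = 7.95e-05). Without MCAO replicate C the log2 fold change was 3.44 and without sham replicate B it was 4.95, each still called.

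*H2-Aa*, an alpha chain, was at 3.26, 1.39, 9.81 and 10.8 CPM in the shams of day 3 and at 10.7, 38.0, 106, 25.4 and 91.7 CPM after MCAO. The lowest MCAO library, replicate A, was just below the highest sham. The log2 fold change was 3.12 ± 0.55 SE (edgeR adjusted p = 9.78e-05), and the call was lost with only these 2 groups in the fit. *H2-Ab1*, its beta chain partner, was between 2.31 and 3.28 CPM in the shams and at 3.20, 19.4, 90.4, 22.5 and 47.1 CPM after MCAO. Replicate A lay within the shams and the other 4 were at least 19.4 CPM. The log2 fold change was 3.66 ± 0.60 SE (edgeR adjusted p = 3.13e-05), and 3.01 without MCAO replicate C.

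*H2-Eb1*, a further class II beta chain gene, was at 0.363, 5.08, 4.67 and 1.41 CPM in the shams of day 3. It was at 6.94, 22.1, 82.9, 23.4 and 28.2 CPM after MCAO. Only its RNA was measured, and not whether its protein forms a class II molecule in these mice. All MCAO libraries were above all shams. The log2 fold change was 3.53 ± 0.65 SE (edgeR adjusted p = 0.000172), and 2.84 without MCAO replicate C.

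*Ciita* was at the floor of the measurement. Of its 19 reads, 13 came from 5 of the 10 MCAO libraries sampled on day 3 or 7, and 2 from the 24 control and sham libraries. With 3 reads as the floor no fold can be given for it, and its adjusted p was 0.321 on day 3 and 0.18 on day 7.

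**Figure D2:**
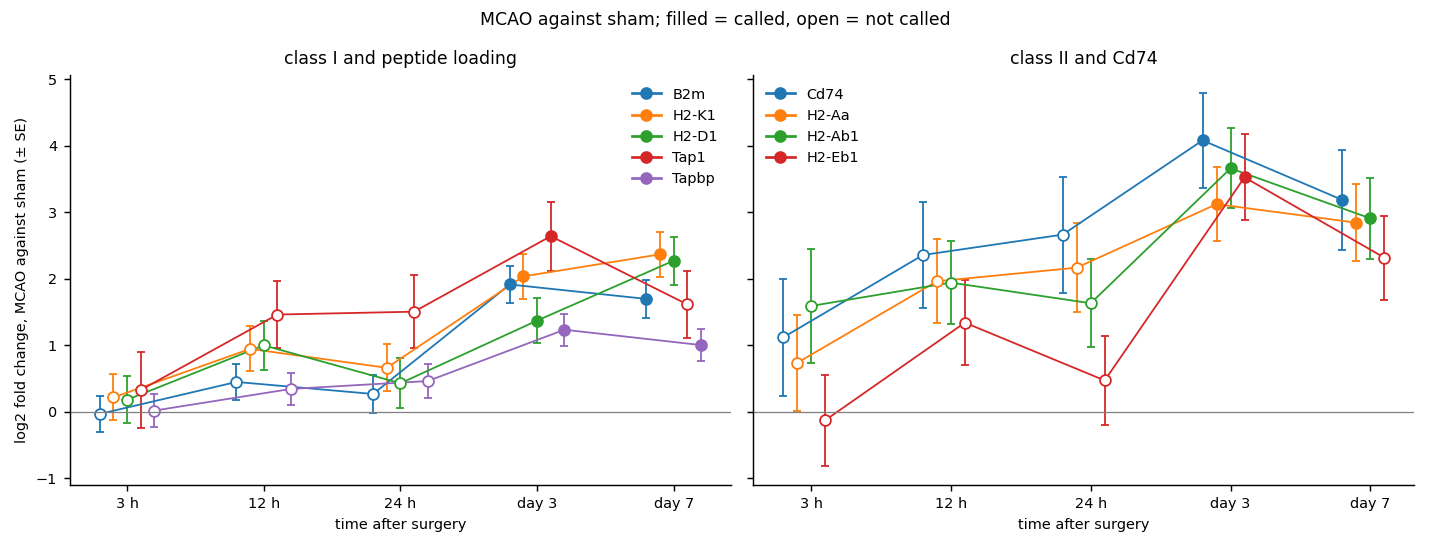
Log2 fold change of MCAO against sham on the vertical axis at the 5 times on the horizontal axis. The class I and loading genes are on the left, and Cd74 and the class II genes are on the right. Bars are 1 SE, derived from the F statistic of the test. Filled points were called; these are 9 on day 3 and 7 on day 7, and none at the earlier times.

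On day 7, 7 of the 10 members rose against sham and none fell, while 2.07% of all genes were called higher. These were *B2m*, *H2-K1*, *H2-D1*, *Tapbp*, *Cd74*, *H2-Aa* and *H2-Ab1*. DESeq2 called 8 and limma 6. All 5 MCAO libraries lay above all 4 shams for 7 members, a separation seen in 5.38% of all genes, and those 7 were the called ones. The median log2 fold change of the 9 members other than *Ciita* was 2.32, against 0.06 for all genes.

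The class I genes separated the groups clearly on day 7. *B2m* was at 262, 202, 231 and 211 CPM in the shams and at 501, 479, 1474, 479 and 736 CPM after MCAO (log2 fold change 1.70 ± 0.28 SE, edgeR adjusted p = 9.65e-05). *H2-K1* was at 22.9, 27.1, 36.5 and 21.0 CPM in the shams and at 118, 108, 256, 105 and 107 CPM after MCAO (2.37 ± 0.34 SE, adjusted p = 1.57e-05). *H2-D1* was at 40.0, 19.6, 39.8 and 29.6 CPM in the shams and at 178, 155, 246, 86.8 and 112 CPM after MCAO (2.27 ± 0.36 SE, adjusted p = 4.57e-05). For each of the 3 the lowest MCAO library had more than the highest sham, and replicate C was the highest. *Tapbp* was at 69.2, 85.5, 169.6, 67.2 and 66.4 CPM after MCAO and between 40.1 and 50.4 CPM in the shams (1.00 ± 0.24 SE, adjusted p = 0.00449). *Tap1* was at 6.92, 13.7, 13.7, 4.32 and 8.77 CPM after MCAO and between 1.87 and 4.58 CPM in the shams, and it did not pass (1.61 ± 0.50 SE, adjusted p = 0.0323).

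The class II genes of day 7 leaned on 1 library. *Cd74* was at 0.572, 2.80, 2.73 and 0.456 CPM in the shams and at 3.46, 10.2, 41.6, 11.04 and 11.3 CPM after MCAO (log2 fold change 3.18 ± 0.75 SE, edgeR adjusted p = 0.00432). *H2-Aa* was at 1.72, 8.87, 2.73 and 5.93 CPM in the shams and at 16.1, 31.0, 86.3, 26.4 and 20.04 CPM after MCAO (2.84 ± 0.58 SE, adjusted p = 0.00104). *H2-Ab1* was at 2.86, 5.60, 2.18 and 1.37 CPM in the shams and at 15.6, 15.3, 56.5, 15.3 and 13.2 CPM after MCAO (2.91 ± 0.61 SE, adjusted p = 0.00149). Every MCAO library of these 3 genes was above every sham, and replicate C was the highest each time. *H2-Eb1* was at 4.04, 11.7, 51.8, 14.9 and 21.9 CPM after MCAO and between 2.73 and 7.30 CPM in the shams, and it did not pass (2.32 ± 0.63 SE, adjusted p = 0.0134). Without MCAO replicate C the count of members called fell from 7 to 3 (*B2m*, *H2-K1* and *H2-D1*), and *Cd74* had a log2 fold change of 2.41 (adjusted p = 0.0478), *H2-Aa* of 2.23 (0.0131) and *H2-Ab1* of 2.27 (0.0183). Without sham replicate D it fell to 4, with *H2-Aa* called beside the class I genes, and without sham replicate A to 5, with *Tapbp* and *Cd74* lost. *Tapbp* was also lost without sham replicate B or C, and *H2-Eb1* was gained without MCAO replicate A, with the spike-ins as the scale, with DESeq2 and with no filter on low counts. With only these 2 groups in the fit *Tapbp* (adjusted p = 0.0331) and *Cd74* (0.0152) were lost, and limma lost *Cd74* (0.0146). Calls over all genes moved too: 2.07% of them were called higher with all libraries, 0.718% without MCAO replicate C and 0.788% without sham replicate D.

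Intact cortex gave a second baseline. Against control, 9 members were called on day 3 (all but *Ciita*), with 2.81% of all genes called higher, and 5 on day 7 (*B2m*, *H2-K1*, *H2-D1*, *Tapbp* and *H2-Ab1*), with 1.09% of all genes called higher. These comparisons use the same MCAO libraries as those against sham. Of the controls, replicate A summed to 502 CPM over 5 choroid plexus markers and the others to at most 5.62 CPM. Without this library 9 members were called against control on day 3 and 4 on day 7. On day 3 the log2 fold changes against control were 1.94 for *B2m*, 2.07 for *H2-K1*, 2.00 for *H2-D1*, 3.57 for *Cd74* and 3.35 for *H2-Ab1*. With only the 2 groups compared in the fit, the day 3 count was 4 (*B2m*, *Tap1*, *Tapbp* and *H2-Eb1*). On day 7 the genes that missed the threshold had log2 fold changes of 2.23 (*Tap1*, adjusted p = 0.0101), 2.25 (*H2-Aa*, 0.0108), 2.59 (*H2-Eb1*, 0.0144) and 2.498 (*Cd74*, 0.0322). The day 7 count was 8 with DESeq2, 9 with no filter on low counts and 8 without MCAO replicate A, which gained *Tap1*, *H2-Aa* and *H2-Eb1*. The day 7 call of *H2-Ab1* was lost without MCAO replicate C (log2 fold change 2.06, adjusted p = 0.0693) or without any 1 of the 4 controls, and in limma (adjusted p = 0.0162). Also without MCAO replicate C, the day 7 values against control were 1.73 for *Cd74*, 1.65 for *H2-Aa* and 1.93 for *H2-Eb1*. Without MCAO replicate C the day 3 log2 fold changes against control were 2.94 for *Cd74* and 2.70 for *H2-Ab1*, each still called.

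Before day 3 no member was called. At 12 h, 7 of the 10 had an unadjusted edgeR p under 0.05, as had 2917 of all 19970 genes tested. All 10 had a log2 fold change above 0, and neither DESeq2 nor limma called any. The share of all genes called higher at 12 h was 0.346%. Apart from *Ciita*, the largest values were those of *Cd74* (log2 fold change 2.36 ± 0.79 SE, adjusted p = 0.124), *H2-Aa* (1.96 ± 0.63 SE, 0.109) and *H2-Ab1* (1.94 ± 0.62 SE, 0.105). *H2-Aa* was at 7.05, 6.31, 18.3, 6.47 and 25.01 CPM after MCAO at 12 h and at 2.79, 4.69, 4.44 and 0.779 CPM in the shams, with no overlap. *Tap1* did not overlap either, at 4.45, 4.85, 9.39, 7.65 and 12.5 CPM against 3.91, 3.13, 1.48 and 2.73 CPM (1.46 ± 0.51 SE, 0.142). These were the 2 members without overlap at 12 h, a separation seen in 2.03% of all genes. *B2m*, which has the most reads, had a log2 fold change of 0.45 ± 0.27 SE (adjusted p = 0.466).

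At 24 h the picture was much the same. By edgeR 4 members had an unadjusted p under 0.05, as had 1757 of the 19970 genes. DESeq2 and limma called no member, and 0.0801% of all genes were called higher. *Cd74* was at 5.52, 6.54, 10.6 and 8.55 CPM after MCAO and at 1.78, 0, 2.44 and 0.524 CPM in the shams (log2 fold change 2.66 ± 0.87 SE, adjusted p = 0.252). *H2-Aa* was at 17.0, 10.3, 16.1 and 14.7 CPM against 4.16, 0.632, 1.83 and 5.77 CPM (2.17 ± 0.67 SE, 0.204). Neither of these overlapped, nor did *Tapbp*, and 3.73% of all genes were separated in this way. *B2m* had a log2 fold change of 0.27 ± 0.29 SE (adjusted p = 0.825) and *H2-K1* of 0.66 ± 0.36 SE (0.59). Against control at 24 h no member was called either by edgeR, DESeq2 or limma, and 0.12% of all genes were called higher. The log2 fold change against control was 1.52 for *Cd74* and 0.95 for *H2-Aa*, below their values against sham. For *Tap1* it was 1.85 (1.505 against sham) and for *H2-Eb1* 1.19 (0.47 against sham). An unadjusted edgeR p under 0.05 was seen in 3 members and in 2199 of the 19970 genes.

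At 3 h no member was called by any of these tools, and 0.0901% of all genes were called higher. No member had an unadjusted edgeR p under 0.05, while 1688 of the 19970 genes had. The log2 fold changes of the 9 members other than *Ciita* lay between -0.13 and 1.59. *H2-Ab1*, with 0 to 3 reads in the shams of 3 h, was the 1 member without overlap, a separation seen in 2.27% of all genes. Its mean was 3.03 CPM after MCAO and 0.953 CPM in these shams, but 3.53 CPM in the control group.

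Sham surgery alone was compared with intact cortex at each time. No member was called by edgeR, DESeq2 or limma at any of the 5 times, where the share of all genes called in either direction was 0% at 3 h, 0.0351% at 12 h, 0.01% at 24 h, 0% on day 3 and 0% on day 7. At 3 h 2 members had an unadjusted edgeR p under 0.05, as had 736 of the 19970 genes. At the other 4 times no member had, while 731 to 1604 of all genes had. The smallest adjusted p of the 9 members other than *Ciita* was 0.644, on day 7.

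The change between times was tested as a difference of differences. From 24 h to day 3 the log2 fold change of MCAO over sham had a higher value for the 9 members other than *Ciita*, with a median difference of log2 fold changes of 1.38. No member was called by edgeR, DESeq2 or limma, the smallest edgeR adjusted p was 0.141, and 0.01% of all genes were called. An unadjusted edgeR p under 0.05 was seen in 5 members and in 1762 of the 19970 genes. From day 3 to day 7 no member was called by these tools, and 0% of all genes were called. No member had an unadjusted edgeR p under 0.05, while 3231 of the 19970 genes had. The differences of the 9 members other than *Ciita* ran from -1.21 to 0.90. *H2-D1* was at the upper end of this range and *H2-Eb1* at the lower. Rises seen on day 3 and not at 24 h are therefore not shown to differ between these times.

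In CPM, the MCAO libraries of day 3 and of day 7 differed from each other more than the shams did. They did so for nearly all members at once. As a ratio of highest to lowest this did not hold for every member. On day 3 *H2-Eb1* ran from 6.94 to 82.9 CPM after MCAO and from 0.363 to 5.08 CPM in the shams. On day 3 replicate A was the lowest of the 5 for all 9 members other than *Ciita*. Replicate C was the highest for 7 of them, and replicate E for the other 2, which were *H2-K1* and *H2-D1*. On day 7 replicate C was the highest for 8 of the 9, the exception being *Tap1*. The summed level of *Cd74*, *H2-Aa*, *H2-Ab1* and *H2-Eb1* was 1.96, 6.49, 25.8, 5.92 and 15.9 times the mean of the shams in replicates A to E on day 3, and 2.91, 5.06, 17.5, 5.01 and 4.92 times on day 7. The sum of *B2m*, *H2-K1* and *H2-D1* was 1.52, 3.07, 5.69, 2.54 and 5.15 times the mean of the shams on day 3, and 2.79, 2.60, 6.92, 2.35 and 3.35 times on day 7.

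**Figure D3:**
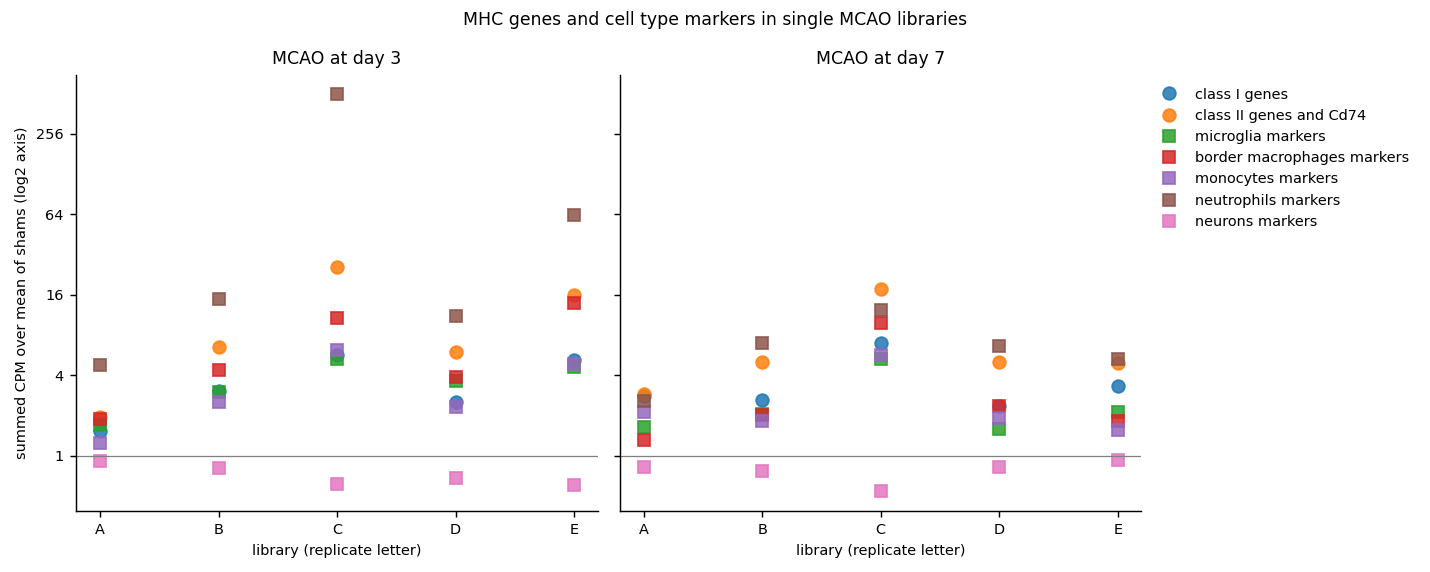
Summed CPM of class I genes, of class II genes with Cd74 and of 5 cell type marker lists in each MCAO library of day 3 (left) and day 7 (right), divided by the mean of the shams of that day, on a log2 axis. Circles are MHC genes and squares are markers; replicates C and E on day 3 and C on day 7 are high for both, and neuron markers are lowest there or close to it.

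Markers of myeloid cells were high in the same libraries. The 9 microglia markers, such as *Cx3cr1* and *Csf1r*, summed to between 247 and 343 CPM in the shams of day 3 and to 542, 952, 1662, 1147 and 1468 CPM in MCAO replicates A to E. On day 7 they summed to between 364 and 480 CPM in the shams and to 669, 844, 2152, 649 and 865 CPM after MCAO. Of the 9 microglia markers, 6 were called higher on day 3 and 4 on day 7. In the MCAO libraries and the shams of day 3, *Cx3cr1* had 4384 and 1131 reads and *Csf1r* 4175 and 772. *P2ry12* had 250 and 149. The 7 markers of border macrophages, such as *Mrc1* and *Pf4*, summed to between 15.0 and 19.9 CPM in the shams of day 3. After MCAO they summed to 32.0, 74.6, 181, 65.9 and 235 CPM, with 3 of 7 called higher. Their day 7 sums were between 13.7 and 25.1 CPM in the shams and 24.2, 37.7, 183, 43.7 and 33.8 CPM after MCAO, with 1 called higher. *Pf4* had 643 reads in the MCAO libraries and 36 in the shams of day 3, whereas *Cd163* had 19 and 13 and *Lyve1* 23 and 10. The 5 monocyte markers summed to between 12.6 and 24.0 CPM in the shams of day 3 and to between 22.96 and 113 CPM after MCAO. The day 7 sums were between 16.3 and 19.4 CPM in the shams and between 28.2 and 102 CPM after MCAO. On each day 2 of 5 were called higher. Most sham reads came from *Vcan*, with 171 on day 3 and 139 on day 7 (316 and 332 after MCAO). *Ccr2* had 1 and 3 reads in the shams of these days and 172 and 21 after MCAO. Markers of some cells that are not leukocytes were also high. The 7 endothelial markers summed to 228, 402, 614, 336 and 577 CPM in MCAO replicates A to E on day 3 and to between 230.3 and 267 CPM in the shams, with 2 of 7 called higher, and on day 7 the groups overlapped. The 5 astrocyte markers summed to between 1180 and 2182 CPM after MCAO on day 3 and between 809.8 and 1038 CPM in the shams, highest in replicate C, with 2 of 5 called higher. On day 7 they summed to between 1023 and 1726 CPM and between 749 and 849 CPM, with 3 called higher, and replicate C was the lowest MCAO library. The 5 oligodendrocyte markers overlapped between the groups on both days, with 0 of 5 called higher on day 3 and 1 on day 7. Their day 7 sums were 1677 (replicate C) to 4646 CPM after MCAO and 1483 to 2210 CPM in the shams. The part of all these cells in the MHC values was not tested.

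Other leukocytes gave a mixed picture. The 6 neutrophil markers reached 622 CPM in replicate C of day 3, where the shams had at most 2.31 CPM. At 12 h after MCAO they summed to 11.1, 30.6, 167, 176 and 1700 CPM in replicates A to E. Of these libraries, replicate E was the highest for 6 of the 9 members other than *Ciita*. Replicate A was the lowest for 5 of the 9 and replicate B for 4. The part of neutrophils in the MHC values was not tested. The 8 dendritic cell markers summed to between 22.5 and 44.95 CPM after MCAO on day 3 and to between 28.5 and 38.4 CPM in the shams, with overlap, and most of their reads came from *Zbtb46* and *Flt3*. *Itgax* had 41 reads in the MCAO libraries and 5 in the shams of day 3 (36 and 1 on day 7) and *Ccr7* had 11 and 1 (14 and 1 on day 7), while *Xcr1* and *Clec9a* had 3 and 6 reads in all libraries together. Of the 6 B cell markers, *Cd79a* and *Ms4a1* had 0 reads in the whole series, and most reads of the list came from *Ighm*. *Ighm* had 353 reads in the MCAO libraries and 247 in the shams of day 3 (138 and 238 on day 7). The B cell markers summed to between 11.7 and 46.9 CPM after MCAO on day 3 and between 7.94 and 46.4 CPM in the shams. On day 7 they summed to between 10.1 and 28.3 CPM after MCAO and between 24.0 and 41.2 CPM in the shams. Of the 10 T and NK cell markers, *Cd3e* had 3 reads in all, *Cd3g* had 1 and *Cd8a* had 1, and the sum on day 7 was between 5.01 and 30.0 CPM after MCAO and between 40.6 and 58.9 CPM in the shams. That lower sum was *Trbc2*, with 25 reads in the MCAO libraries and 288 in the shams, whereas *Cd4* had 90 and 77, *Trac* 9 and 5 and *Nkg7* 4 and 0 (13 and 0 on day 3). The 6 neuron markers summed to between 4652 and 6995 CPM after MCAO on day 3, where replicate A was the highest, and to between 7050 and 8271 CPM in the shams of that day.

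Genes outside the members were ranked by how closely they followed them over the 48 libraries, as a description without a test, since all these points share the same groups. For the mean log2(CPM + 1) of *B2m*, *H2-K1* and *H2-D1* the 5 closest of 13911 genes with a mean of at least 2 CPM were *Mpeg1* (Pearson r = 0.91), *Ctss* (0.91), *Lgals9* (0.91), *Vim* (0.91) and *Cd5l* (0.90). For the mean of *Cd74*, *H2-Aa*, *H2-Ab1* and *H2-Eb1* they were *Lyz2* (0.94), *Fcer1g* (0.93), *Fyb* (0.92), *Spp1* (0.92) and *Lgals3* (0.91). *Mpeg1*, which encodes a pore protein of macrophages, was at 6.51 ± 1.41 CPM (SD, n = 4) in the shams of day 3 and at 70.2 ± 50.4 CPM (SD, n = 5) after MCAO. *Lyz2*, the lysozyme of myeloid cells, was at 9.56 ± 4.77 CPM (SD, n = 4) and 399 ± 337 CPM (SD, n = 5). *Cd5l*, a secreted macrophage protein, had no reads in the shams of day 3 and lay between 0 and 43.5 CPM after MCAO.

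Around the members, 92 further genes of the pathway were grouped in 7 lists. No gene of these lists was called lower against sham on day 3 or day 7. Few genes were called lower at all, with 52 of 19970 on day 3 and 285 on day 7. In the list of class I peptide supply and loading, 3 of 13 genes rose on day 3 (median log2 fold change 0.81) and 3 on day 7 (0.49). *Psmb8*, a subunit of the immunoproteasome that cuts peptides for class I, went from 1.68 ± 1.15 CPM (SD, n = 4) in the shams to 25.2 ± 14.3 CPM (SD, n = 5) after MCAO on day 3, and rose on both days (log2 fold change 3.83 and 3.03, edgeR adjusted p = 2.95e-06 and 0.000208). *Psmb9*, another immunoproteasome subunit, rose on day 7 (3.17, adjusted p = 0.00312) and had a log2 fold change of 2.15 on day 3 (adjusted p = 0.013). *Pdia3* and *Calr*, which fold and hold class I molecules in the endoplasmic reticulum, rose on day 3 by less, with log2 fold changes of 0.86 and 0.59, and *Psme1*, of the proteasome activator, rose on day 7 (0.82).

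In the list of class II loading and processing, 6 of the 13 genes tested rose on day 3 (median log2 fold change 1.61) and 6 on day 7 (2.31). *Ifi30*, a thiol reductase of the endosome, had log2 fold changes of 3.60 and 3.65 on the 2 days (edgeR adjusted p = 8.31e-06 and 0.00014). *Ctss*, the protease best known for trimming the invariant chain, went from 60.4 ± 4.19 CPM (SD, n = 4) to 381 ± 198 CPM (SD, n = 5) on day 3, with log2 fold changes of 2.66 and 2.34 (adjusted p = 5.07e-08 and 2.27e-06). *Ctsd* (2.96 and 2.75) and *Lgmn* (1.82 and 2.87), further endosomal proteases, rose on both days. All MCAO libraries were above all shams for *Ctss*, *Ctsd* and *Ifi30* on both days.

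Of the 14 transcription factors of MHC genes, 4 rose on day 3 (median log2 fold change 0.67) and 2 on day 7 (0.14). *Irf8*, a factor of myeloid cells, rose on both days (2.62 and 2.65, edgeR adjusted p = 1.36e-06 and 6.31e-06). *Spi1*, the myeloid factor PU.1, rose on day 3 (3.30, adjusted p = 1.62e-05) and had a log2 fold change of 1.81 on day 7 (adjusted p = 0.0149). *Irf1*, which interferon gamma induces, rose on day 3 (1.53, adjusted p = 0.00289).

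Of the 10 genes tested for interferon ligands, receptors and feedback, 4 rose on day 3 (median log2 fold change 1.01) and 1 on day 7 (0.79). *Socs3*, a feedback inhibitor of cytokine signalling, had a log2 fold change of 3.30 on day 3 (edgeR adjusted p = 0.00081) and was already called at 12 h (3.61, adjusted p = 0.00821), where its MCAO libraries overlapped the shams. *Irf9*, a part of the complex that answers type I interferon, rose on both days (1.70 and 1.30), and *Ifngr1*, a chain of the interferon gamma receptor, rose on day 3 (1.29).

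The interferon-stimulated genes were the list that rose most often, with 9 of 16 on day 3 (median log2 fold change 2.46) and 8 of 16 on day 7 (2.59, or 2.47 with *Mx1* at its lower bound). *Ifi27l2a* went from 0.713 ± 0.622 CPM (SD, n = 4) to 13.7 ± 6.56 CPM (SD, n = 5) on day 3, with log2 fold changes of 4.10 and 4.47 (edgeR adjusted p = 4.68e-05 and 0.000117). *Gbp3*, a guanylate-binding protein, rose on both days (3.49 and 2.85). *Irf7*, a factor that amplifies the interferon response, rose on day 3 (3.13), and *Isg15*, a ubiquitin-like protein, rose on day 7 (3.86). *Mx1*, an antiviral GTPase, had 0 reads in the shams of day 7 and 3 to 7 reads in each MCAO library, at least 1.64-fold higher when each sham is set to 3 reads.

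In 2 lists no gene was called on either day. Of the other class I heavy chains and nonclassical class I genes 14 were tested, with a median log2 fold change of 0.83 on day 3 and 0.88 on day 7 (0.68 on day 7 for the 10 genes above 3 reads), and 2 and 4 of them had an unadjusted edgeR p under 0.05. Of the ligands of co-stimulation and checkpoints 5 were tested, with a median log2 fold change of 2.46 on day 3 and 1.15 on day 7, and 4 and 1 had an unadjusted edgeR p under 0.05. Of all 19970 genes, 4306 on day 3 and 4698 on day 7 had an unadjusted edgeR p under 0.05. DESeq2 and limma called none of the heavy chain list on either day. Of the ligands, DESeq2 called 1 on day 3 (*Cd274*, or PD-L1) and limma 1 on day 7 (*Cd86*), and both were named after their values were seen.

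For the genes named from these lists, limma on the deposited matrix did not call *Calr*, *Lgmn* and *Socs3* on day 3 or *Isg15* on day 7.

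**Figure D4:**
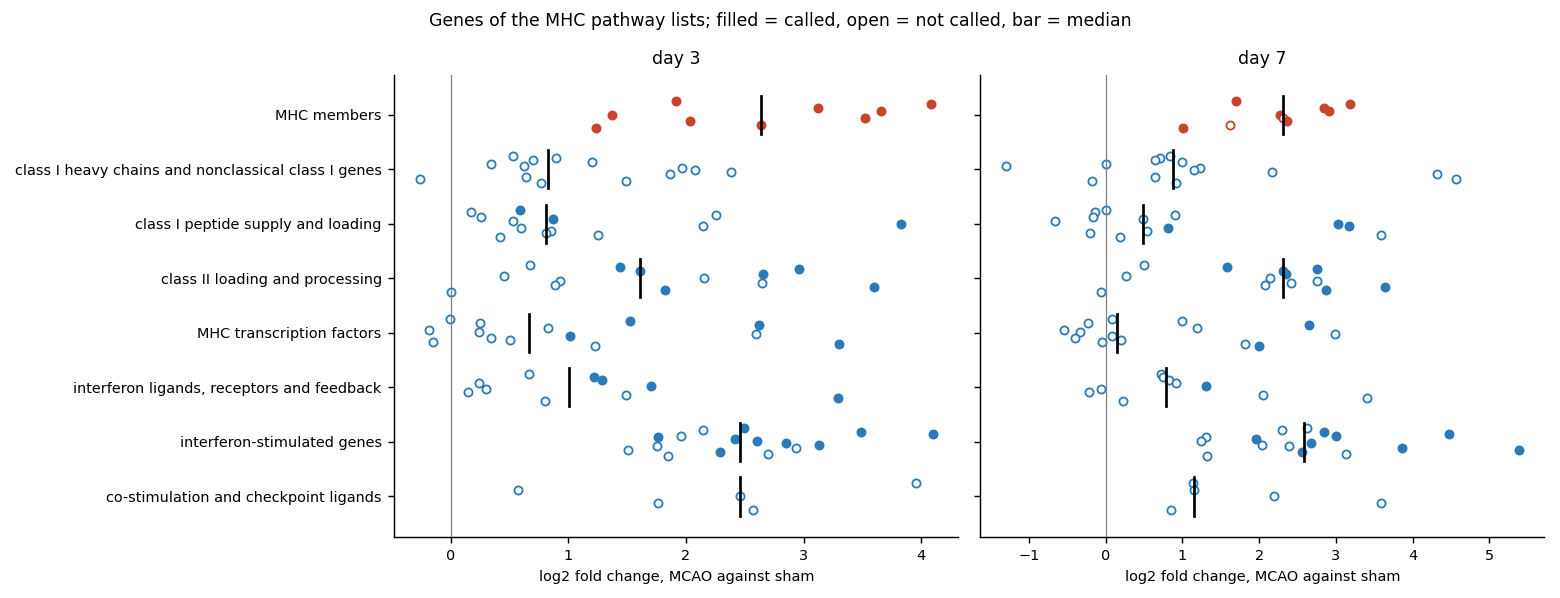
Log2 fold change of MCAO against sham for the members and for the genes of the 7 pathway lists on day 3 (left) and day 7 (right); each point is a gene, filled when called, and bars are medians. No filled point lies below 0; the point of Mx1 on day 7 is a fitted value against shams with 0 reads.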

How the data were processed

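Libraries were made with a 3′ end kit (QuantSeq) from total RNA of 48 samples. The authors trimmed the reads, removed ribosomal and mitochondrial reads, aligned the rest with STAR 2.5.2b to GRCm38 with spike-ins, and counted reads per gene with HTSeq against Gencode. The strand setting of the counting is not given in the sources used here. The deposited files hold raw counts per library, and a deposited matrix holds the authors' variance-stabilized values on a log2 scale, which was used only as an alternative. Counts on genes were 1522668 to 2826735 per library, and 24.0 to 37.3% of the reads recorded in a file had no unique place. Rows that name no gene were left out, among them reads on no feature (21.1 to 30.6%) and ambiguous reads (0.343 to 0.475%).

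Counts were tested with edgeR 4.0.16 (quasi-likelihood, TMM, R 4.3.3) in 1 model of 11 groups over 19970 genes with more than 10 counts in total. Tested on simulated data, the fit recovered known changes, which were set only in genes above a minimum level of reads. The simulated libraries varied independently within a group. Genes with few reads and spread shared by many genes of a library were therefore not covered. Groups came from the sample labels. Alternatives were DESeq2 1.42.0, limma 3.58.1 on the deposited matrix, other scalings and filters, the compared groups alone, a replicate block, and leaving out each library.

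The members and lists were chosen with earlier results of these data known. Named genes are the members, up to 3 called genes of each list with the largest change on each day, and the 5 genes closest to each class by Pearson r of log2(CPM + 1). Some genes that this rule or the marker lists hold are not reported here by name.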

Additional observations from a re-analysis of the deposited data

Results flagged for a closer look

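In 98 sets of libraries (a member in a group, where some library had more than 3 reads), 10 had a highest library whose gap to the next was past Dixon's 95% limit for the group's size, and chance alone gives about 1 in 20, or 4.9 of them. Replicate C of the MCAO libraries of day 7 accounts for 6. It had 1474 CPM of *B2m* (the others 479 to 736 CPM), 256 CPM of *H2-K1* (105 to 118 CPM), 169.6 CPM of *Tapbp* (66.4 to 85.5 CPM), 41.6 CPM of *Cd74* (3.46 to 11.3 CPM), 86.3 CPM of *H2-Aa* (16.1 to 31.0 CPM) and 56.5 CPM of *H2-Ab1* (13.2 to 15.6 CPM). In the MCAO libraries of day 3, replicate C had 82.9 CPM of *H2-Eb1* (6.94 to 28.2 CPM). At 3 h after MCAO, replicate D had 4.74 CPM of *Tap1* (1.81 to 2.36 CPM). In the shams, replicate B of day 3 had 4.62 CPM of *Cd74* (0.934 to 1.09 CPM), and replicate D of day 7 had 7.30 CPM of *H2-Eb1* (2.73 to 3.27 CPM). No member's change between times passed the test.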

How the results depend on the processing

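Counts of members called moved by more than 1.5 times for MCAO against control on day 3 when the fit held no other groups (4), and on day 7 with DESeq2 (8) and with no filter on low counts (9). Leaving out 1 library gave 3 to 8 on day 7 against sham (3 without MCAO replicate C), 4 to 8 on day 7 against control, 8 to 9 on day 3 against sham and 9 on day 3 against control; all other comparisons stayed at 0. With the replicate letter as a block the counts were 8 and 7 against sham and 9 and 6 against control on days 3 and 7, and 0 elsewhere. No pairing by letter was shown. Over 226 pairs of libraries with 1 letter in different groups, deviations from the group mean had a median correlation of 0.00835 (-0.513 to 0.635). Over 820 pairs with different letters the median was -0.00333 (-0.627 to 0.717). Correlations were over 0.1 in 67 of the 226 pairs and in 203 of the 820. A median near 0 cannot exclude pairing. Of log2 fold changes of single members, 9 turned sign, all in the change between times, where none was called. From 24 h to day 3, *Tap1* was at -0.16 without sham 24 h replicate A (range over left-out libraries -0.16 to 1.57). From day 3 to day 7 with the spike-ins as the scale, *B2m* was at 0.10, *Tapbp* at 0.085 and *H2-Aa* at 0.12. *B2m* was at 0.034 and *H2-Aa* at 0.11 without MCAO day 3 replicate C, *H2-K1* at -0.011 without MCAO day 7 replicate C, and *H2-Aa* at 0.04 without sham day 3 replicate B and 0.19 without sham day 7 replicate B. Over all left-out libraries the ranges were -0.64 to 0.034 for *B2m*, -0.011 to 0.62 for *H2-K1* and -0.89 to 0.19 for *H2-Aa*. The cause was not tested. Under spike-in scaling the median log2 fold change of all genes was -0.22 on day 3 and 0.14 on day 7 against sham (0.012 and 0.056 with TMM), and -0.28 on day 3 against control (0.022). Of the genes called, it put 463 up and 131 down against sham on day 3 (750 and 52 with TMM), 403 and 86 on day 7 (413 and 285), and 349 and 345 against control on day 3 (561 and 58). With a pseudocount of 0.1, 4 of the 5 closest genes stayed for each class. Counts of a few reads limit *Ciita* and the class II baseline.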
